A study of Arabidopsis thaliana with 6 samples.

Results

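The genes described here are 10 enzymes of phenylpropanoid and flavonol synthesis, taken by their locus identifiers from a count table of 33602 genes: PAL1, PAL2, PAL4, C4H, 4CL1 and 4CL3 of the general pathway, and CHS, CHI, F3H and FLS1 of the flavonoid branch. All 10 were found in the table, and none of them overlaps another listed gene. RNA was sequenced from whole seeds of Arabidopsis thaliana Col-0, the wild type, in 6 libraries. All seeds took up water on agar in the dark for 2 h, were given an initial far-red pulse of 20 min and were then kept dark for 3 days at 5°C. The Rp group (3 biological replicates) then received a red pulse of 20 min (photon flux 0.05 µmol per square metre and second, Pfr/P calculated as 0.87), and the FRp group (3 biological replicates) a far-red pulse of 20 min (photon flux 42 µmol per square metre and second, Pfr/P calculated as 0.03). Pfr/P is the share of phytochrome, the red and far-red photoreceptor, that is in its active form. Seeds were collected 12 h after the pulse. The comparison asks how mRNA levels after a red pulse that induces germination differ from those after a far-red pulse. No library came from seeds before the red or far-red pulse, or from seeds left dark after the cold. Below, fell and rose mean lower and higher after the Rp than after the FRp. A fall after the Rp and a rise after the FRp cannot be told apart. Because whole seeds were used, fewer cells of a type and less RNA per cell cannot be told apart.

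Phenylalanine ammonia-lyase (PAL) removes the amino group of phenylalanine, cinnamate 4-hydroxylase (C4H) hydroxylates the cinnamate that results, and 4-coumarate:CoA ligase (4CL) activates the product as a CoA ester. From there the path divides, towards lignin precursors and sinapate esters on one side and, through chalcone synthase (CHS), chalcone isomerase (CHI), flavanone 3-hydroxylase (F3H) and flavonol synthase (FLS1), towards flavonols on the other. In Arabidopsis seeds the seed coat holds proanthocyanidins and flavonols and the embryo holds sinapate esters and flavonols, and in seedlings many of these genes respond to light through MYB, bZIP and bHLH factors.

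Short elements of the type bound by MYB factors recur before genes of this pathway, so the sequences that hold them are shown first. In the 250 bases before the gene start given in the count table, on either strand, ACCTACC was found in 5 of the 10 genes and in 1.18% of 27997 genes of the genome, and ACCAACC in 2 of the 10 and in 2.99%. At least 1 of the pair was present in 6 of the 10 genes, against 4.09% of all genes. The G-box CACGTG, the element of light-responsive genes bound by bZIP and bHLH factors, was present in 3 of the 10 genes and in 7.58% of all, and its core ACGT, which every G-box contains, in 8 of the 10 and in 45.4% of all. The 5 sites of ACCTACC and the 3 G-boxes are given with 11 bases on each side, read in the direction of the gene from the RefSeq TAIR10.1 sequence, with the element in capitals and the position on that build.
PAL1, chr2:15560405-15560433, minus strand: tctatacgcttACCTACCaacaaacacta
C4H, chr2:12995949-12995977, minus strand: ggtctttctttACCTACCaccatcaacaa
4CL3, chr1:24171686-24171714, minus strand: ccattccctctACCTACCccaatttcttc
CHS, chr5:4488607-4488635, plus strand: ccgtccatctaACCTACCacactctcatc
CHI, chr3:20431499-20431527, minus strand: taactattgctACCTACCcttctctcttc
PAL4, chr3:3203860-3203887, plus strand: tacatggaagaCACGTGgtgactatatt
CHI, chr3:20431542-20431569, minus strand: aaacgaaagtaCACGTGcttacacatcc
F3H, chr3:19024932-19024959, plus strand: catgtctccgcCACGTGatttctccaca
The sites of ACCAACC lie before C4H and 4CL1. PAL2 and FLS1 had none of the 3 longer elements in this window. The choice of start decides the count of the MYB-type elements. The RefSeq gene models of 9 of the 10 genes begin 25 to 392 bases further upstream, so that 7 of the 10 sites of the 3 longer elements lie inside the RefSeq gene. With 250 bases before the RefSeq starts, 1 of the 10 genes (4CL3) had a MYB-type element, against 3.79% of all genes, while the G-box was found in 3 (PAL4, CHS and F3H), against 6.45%. A match says only that the letters are there. The genes with an ACCTACC site include genes that fell after the Rp and genes that did not pass the test, as given below.

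**Figure D1:**
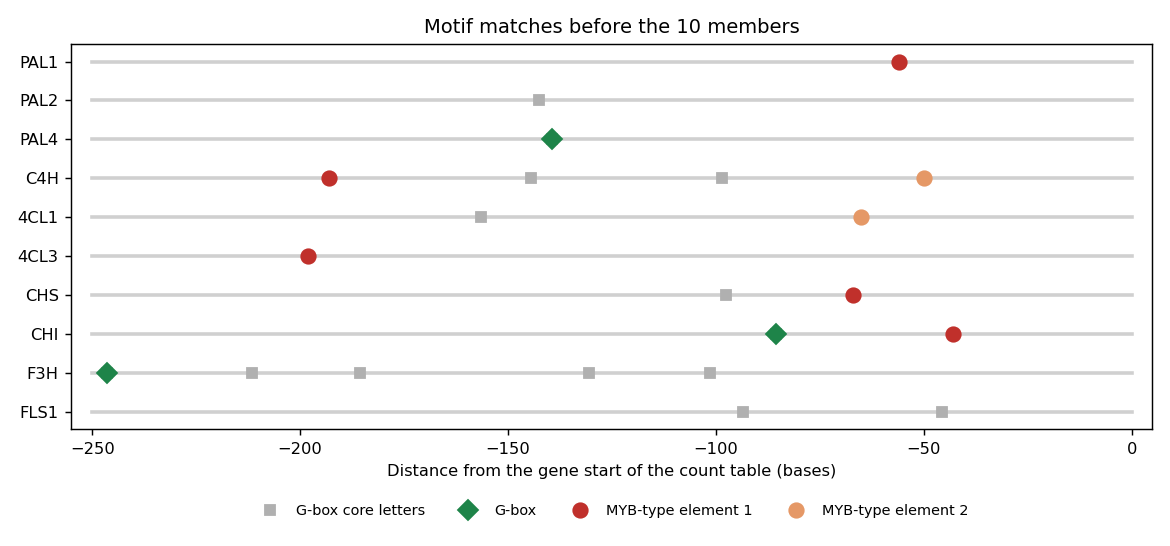
Position of each motif match in the 250 bases before the gene start of the count table (x axis, bases from the start) for the 10 genes (rows), with MYB-type element 1 for ACCTACC, element 2 for ACCAACC, and a grey square for a G-box core outside a full G-box. The MYB-type elements of PAL1, C4H, 4CL1, 4CL3, CHS and CHI and the G-boxes of PAL4, CHI and F3H are seen, and PAL2 and FLS1 have only the core.

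The libraries held 24234421 to 32387080 reads in genes. The 10 genes together took 0.00633 to 0.00682% of all reads after the Rp and 0.00609 to 0.00692% after the FRp, so their summed share overlapped between the groups. The rest of the mRNA did not keep its make-up. The summed reads of 6 embryo markers (cruciferins, oleosins and M17) took 0.835 to 1.21% of each Rp library and 10.4 to 11.8% of each FRp library, and all 6 fell after the Rp. The 6 endosperm markers took 0.161 to 0.290% after the Rp and 0.580 to 0.759% after the FRp. Of the 5 tested, EPR1 and NCED6 fell, MAN7 and MAN6 rose and MAN5 did not pass, while ZOU had 2 reads in Rp replicate 2 and 0 in the other libraries. EPR1 was at 1775 CPM after the Rp and 7485 CPM after the FRp, and MAN7, the next highest, at 125 and 45.6 CPM. The summed endosperm share therefore rests largely on EPR1. The 6 seed coat markers took 0.00359 to 0.00431% after the Rp and 0.00136 to 0.00162% after the FRp. The 3 of them that could be tested (TT12, MUM2 and MUM4) were called higher, MUM2 having passed the filter only through the Rp group. The TT12 call depended on the libraries used, as given below. BAN, TT10 and AHA10 were under the filter and did not pass without one (log2 fold changes -0.52, 0.12 and 0.77). MUM4 was the highest of the 6, at 20.4 CPM after the Rp and 8.82 CPM after the FRp, so the summed share rests largely on it. The 4 photosynthetic markers took 0.0622 to 0.0893% and 0.0238 to 0.0311%, nearly all of it RBCS1A, with LHCB1.1 and LHCB2.2 at 0 in some libraries of each group. Levels below are CPM, the reads of a gene per 1e+06 reads of its library, scaled by TMM, the edgeR normalization that sets the bulk of genes level between libraries, and the part of these markers in the results was not tested. With library totals in place of TMM, the median log2 change over the tested genes was 0.45 in place of 0.02, and every fold change below moves up by about that shift.

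Of the 10 genes, 6 had more than 10 reads on average and a read density over 0.05 per base in at least 1 condition and could be tested among 16924 genes. A gene was called when its Benjamini-Hochberg adjusted p from the edgeR quasi-likelihood test was below 0.05 and its fold change was above 1.5. PAL2, PAL4, 4CL1, CHS and F3H fell after the Rp and C4H did not pass, so 5 of the 6 were called lower and 0 higher, where 26.8% of all tested genes were called lower and 28.8% higher (55.6% in all). Since 4CL1 and CHS passed the expression filter only through the FRp group, where they are high, a difference was part of how these 2 came to be tested. The median log2 fold change of the 6 was -1.02, against 0.02 over all tested genes. In 78.3% of all tested genes the CPM of the groups did not overlap, so a lack of overlap, where given below, is common. Without any filter, in 25888 genes, 6 of the 10 were called lower, 0 higher and 4 did not pass, where 19.7% of genes were called lower and 22.3% higher (42.0% in all). The extra gene was PAL1.

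**Figure D2:**
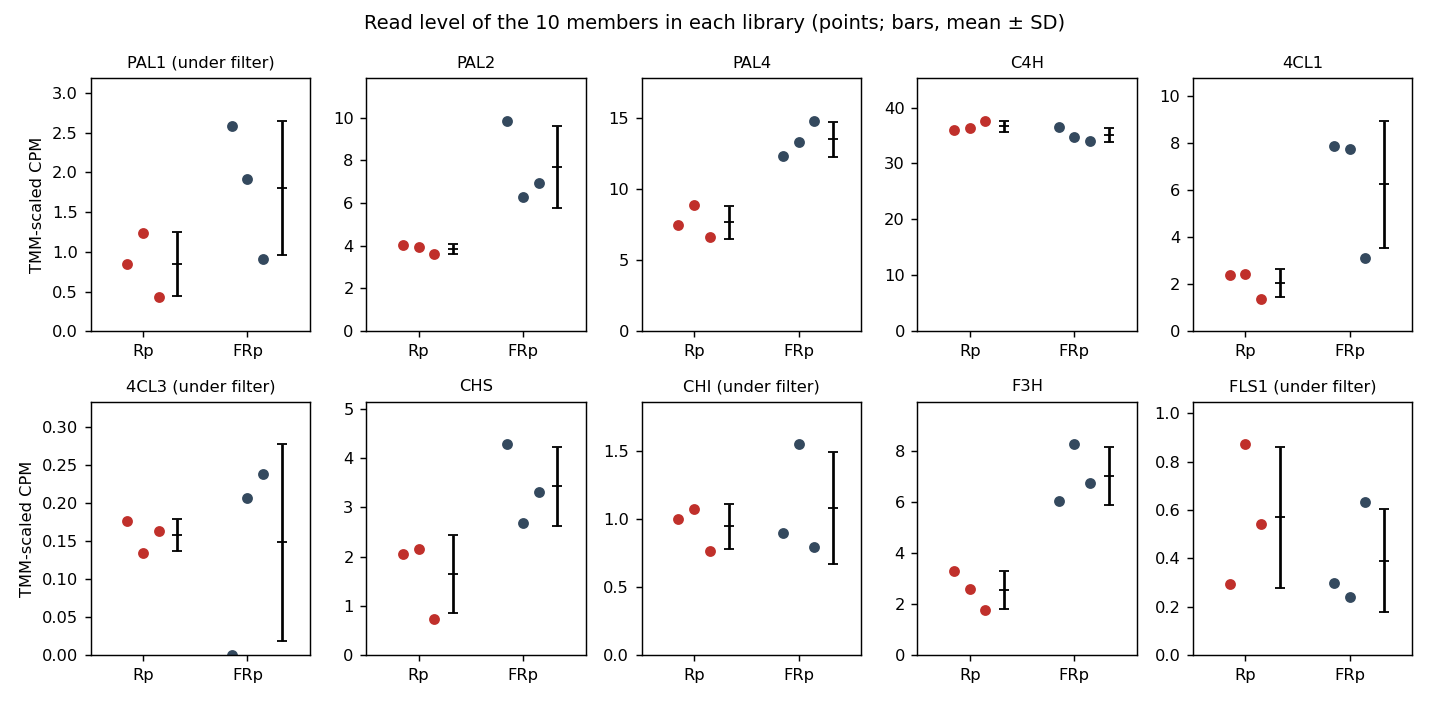
TMM-scaled CPM (y axis, linear from 0, a scale of its own in each panel) of the 10 genes in the 3 Rp libraries (red points) and the 3 FRp libraries (blue points), replicates 1 to 3 from left to right, with the mean ± SD as a black bar. The points of PAL2, PAL4, 4CL1, CHS and F3H do not overlap between the groups, while those of C4H, PAL1, 4CL3, CHI and FLS1 do.

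The entry enzyme PAL is encoded by 4 genes, of which PAL2 and PAL4 could be tested. PAL2 (AT3G53260, chromosome 3, 19744051 to 19746780 on TAIR10) had 138, 117 and 133 reads in Rp replicates 1 to 3 and 198, 183 and 175 in FRp replicates 1 to 3, or 4.04, 3.92 and 3.61 CPM against 9.86, 6.29 and 6.92 CPM. The Rp libraries lay close together and below every FRp library, among which replicate 1 was the highest. The mean was 3.86 ± 0.23 CPM (SD, n = 3) after the Rp and 7.69 ± 1.91 CPM (SD, n = 3) after the FRp, and PAL2 fell by 0.99 on the log2 scale (SE 0.20, edgeR adjusted p = 5.72e-04).

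PAL4 (AT3G10340, chromosome 3, 3204013 to 3208022) had 254, 266 and 245 reads after the Rp and 248, 388 and 375 after the FRp, or 7.44, 8.92 and 6.64 CPM against 12.4, 13.3 and 14.8 CPM. In raw reads FRp replicate 1, the shallowest library, was within the range of the Rp libraries, and after scaling the groups were apart. PAL4 fell by 0.82 on the log2 scale (SE 0.14, edgeR adjusted p = 2.00e-04), from 13.5 ± 1.24 to 7.67 ± 1.15 CPM (SD, n = 3 each). With library totals the fall of PAL2 was 0.55 and that of PAL4 0.39 on the log2 scale (edgeR adjusted p = 0.0165 and 0.0252), below the fold change of 1.5, so neither was called.

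PAL1 (AT2G37040, chromosome 2, 15557376 to 15560363) was under the filter, with 29, 37 and 16 reads after the Rp and 52, 56 and 23 after the FRp. These are 0.850, 1.24 and 0.434 CPM against 2.59, 1.92 and 0.909 CPM. In each group replicate 3 was the lowest, and FRp replicate 3 lay within the Rp range. In the fit without a filter PAL1 fell by 1.11 on the log2 scale (SE 0.40, edgeR adjusted p = 0.0170), and the call was lost without Rp replicate 3 (fall of 0.79, edgeR adjusted p = 0.0744), without FRp replicate 1 (fall of 0.79, edgeR adjusted p = 0.146) and with library totals (fall of 0.68, edgeR adjusted p = 0.128). The coding sequences of PAL1 and PAL2 are 84.0% identical in TAIR10.1, with an identical run of 80 bases, so reads could be split between them and the value of each is uncertain to that extent. PAL4 is 72.9% identical to PAL1 and 73.5% to PAL2, with identical runs of at most 32 bases.

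PAL3 (AT5G04230), the fourth PAL gene and not among the 10, was under the filter as well, at 2.58, 1.88 and 2.12 CPM after the Rp and 0.648, 1.44 and 1.70 CPM after the FRp. Every Rp library was above every FRp library, with FRp replicate 1 far below the other two of its group. It was the 1 gene of the family with a higher value after the Rp (log2 fold change 0.76, edgeR adjusted p = 0.0463 without a filter), but the call was lost without Rp replicate 1 (0.64, edgeR adjusted p = 0.159) and without FRp replicate 1 (0.46, edgeR adjusted p = 0.278).

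C4H (AT2G30490, chromosome 2, 12993663 to 12995770), the single gene of its step, had the highest read level of the 10. It had 1226, 1082 and 1389 reads after the Rp and 734, 1013 and 862 after the FRp. Scaled, these were 35.9, 36.3 and 37.7 CPM against 36.6, 34.8 and 34.1 CPM. The libraries of both groups overlapped within a narrow band. The log2 fold change was 0.06 (SE 0.09, edgeR adjusted p = 0.543), so PAL2 and PAL4 fell while C4H, the next step, did not pass the test. With library totals it was 0.49 (edgeR adjusted p = 3.66e-04), still below the fold change of 1.5.

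The contrast between C4H and its neighbours can be read without any scaling between libraries. In reads per length, C4H made up 64.9, 63.6 and 73.1% of the summed level of the 10 genes in Rp replicates 1 to 3, and 48.8, 47.9 and 50.8% in FRp replicates 1 to 3. Every Rp library was above every FRp library. This measure was chosen after its values were seen and is given with no test.

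The ligase step is encoded by several 4CL genes, of which 4CL1 and 4CL3 are among the 10. 4CL1 (AT1G51680, chromosome 1, 19158752 to 19161552), the isoform mainly linked to lignin precursors, had 81, 72 and 50 reads after the Rp and 158, 225 and 79 after the FRp. Its levels were 2.37, 2.41 and 1.36 CPM against 7.87, 7.73 and 3.12 CPM, with replicate 3 the lowest of its group on each side and no overlap between the groups. 4CL1 fell by 1.61 on the log2 scale (SE 0.34, edgeR adjusted p = 9.36e-04), from 6.24 ± 2.70 to 2.05 ± 0.60 CPM (SD, n = 3 each), the largest estimate of the 6 tested genes, with that of F3H within its SE. The call was kept with each library left out in turn (falls of 1.38 to 1.93) and with library totals (fall of 1.19, edgeR adjusted p = 0.00419).

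4CL3 (AT1G65060, chromosome 1, 24167202 to 24171502), the isoform linked to flavonoids, had 6, 4 and 6 reads after the Rp and 0, 6 and 6 after the FRp. At this depth no difference between the pulses was detectable (log2 fold change 0.02, SE 1.05, edgeR adjusted p = 0.986 without a filter). The other ligase genes were also low. 4CL5 (AT3G21230) was at 0.674, 0.570 and 0.271 CPM after the Rp and 2.19, 2.23 and 1.94 CPM after the FRp, and fell by 2.08 on the log2 scale without a filter (edgeR adjusted p = 1.20e-05). 4CL2 (AT3G21240) had at most 0.0670 CPM in an Rp library and 0.309 to 0.395 CPM after the FRp, and was called lower without a filter (edgeR adjusted p = 0.0156), with too few reads for a firm size, and not without Rp replicate 3 (edgeR adjusted p = 0.0731) or without FRp replicate 3 (edgeR adjusted p = 0.0554). Its coding sequence is 81.6% identical to that of 4CL1, with an identical run of 35 bases.

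CHS (AT5G13930, chromosome 5, 4488688 to 4490264), the enzyme that commits p-coumaroyl-CoA to flavonoids, had 70, 64 and 27 reads after the Rp and 86, 78 and 84 after the FRp. Its levels were 2.05, 2.15 and 0.732 CPM against 4.28, 2.68 and 3.32 CPM. Rp replicate 3 stood well below the other Rp libraries, and all 3 lay below the FRp libraries. CHS fell by 1.06 on the log2 scale (SE 0.37, edgeR adjusted p = 0.0194), from 3.43 ± 0.81 to 1.64 ± 0.79 CPM (SD, n = 3 each). This call was the least firm of the 5. It was lost without FRp replicate 1 (fall of 0.89, edgeR adjusted p = 0.0752) and with library totals (fall of 0.63, edgeR adjusted p = 0.111), and without Rp replicate 3 the fall was 0.70 (edgeR adjusted p = 0.0374).

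F3H (AT3G51240, chromosome 3, 19025192 to 19026872), which makes dihydroflavonols, had 112, 77 and 65 reads after the Rp and 121, 240 and 170 after the FRp. In CPM it was at 3.28, 2.58 and 1.76 against 6.03, 8.24 and 6.72, and the lowest FRp library was well above the highest Rp library. F3H fell by 1.47 on the log2 scale (SE 0.24, edgeR adjusted p = 1.11e-04), from 6.997 ± 1.13 to 2.54 ± 0.76 CPM (SD, n = 3 each). The call was kept with each library left out (falls of 1.26 to 1.70) and with library totals (fall of 1.05, edgeR adjusted p = 0.00111).

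The other 2 flavonoid genes were under the filter. CHI (AT3G55120, chromosome 3, 20430114 to 20431470), which closes the chalcone ring, had 34, 32 and 28 reads after the Rp and 18, 45 and 20 after the FRp, and the groups overlapped (log2 fold change -0.22, SE 0.41, edgeR adjusted p = 0.672 without a filter). FLS1 (AT5G08640, chromosome 5, 2803957 to 2805606), the main flavonol synthase of the plant, had 10, 26 and 20 reads after the Rp and 6, 7 and 16 after the FRp. Rp replicates 2 and 3 were higher than the 3 FRp libraries in reads and Rp replicate 1 was not, and after scaling only Rp replicate 2 stood above them (log2 fold change 0.52, SE 0.61, edgeR adjusted p = 0.487). A p of this size at this depth does not show that CHI and FLS1 were alike after the pulses.

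**Figure D3:**
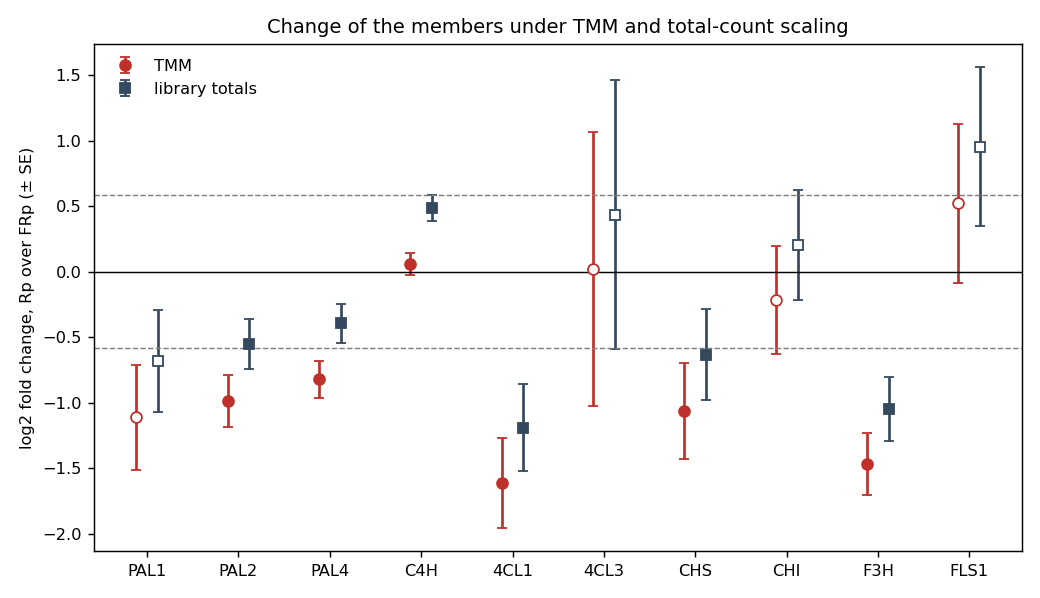
Log2 fold change of the 10 genes, Rp over FRp (y axis, ± SE), with TMM (red circles) and with library totals (blue squares), open symbols for the 4 genes under the filter, and dashed lines at a fold change of 1.5. With TMM, 4CL1 and F3H lie lowest at -1.61 and -1.47 and C4H at 0.06, and with library totals each gene moves up, so that PAL2 (-0.55) and PAL4 (-0.39) come inside the lines.

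Compared per length, the order of the genes was much alike after both pulses. C4H was the highest, at 20.3 ± 0.51 CPM per kb (SD, n = 3) after the Rp and 19.5 ± 0.71 after the FRp, which is above 68.2 and 64.9% of the tested genes. PAL4 was next, at 2.97 ± 0.45 and 5.23 ± 0.48 CPM per kb, followed by F3H at 1.69 ± 0.50 and 4.64 ± 0.75 and PAL2 at 1.53 ± 0.09 and 3.05 ± 0.76. After the Rp the ranges of F3H and PAL2, PAL2 and CHS, CHS and CHI, CHI and 4CL1, and FLS1 and PAL1 overlapped, and after the FRp those of PAL4 and F3H, PAL2 and 4CL1, 4CL1 and CHS, CHI and PAL1, and PAL1 and FLS1 did. The gap between C4H and PAL4 was wider than the spread of the libraries in both groups, and 4CL3 was the lowest, at 0.0757 ± 0.010 and 0.0710 ± 0.062 CPM per kb.

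Ratios of 2 genes within a library ask if they change by unlike amounts, and the scaling of the library cancels in them. With 3 against 3 libraries the exact permutation test cannot give a two-sided p below 0.10. The log2 ratio of CHS to PAL1 was 1.70 ± 0.29 (SD, n = 3) after the Rp and 1.79 ± 0.74 after the FRp, a difference of -0.09 (exact permutation p = 1). The ratios PAL2 to PAL1 and PAL4 to PAL1 were higher after the Rp by 0.13 and 0.28 (exact permutation p = 0.80 and 0.70), with overlapping libraries. The log2 ratio of FLS1 to F3H was -3.47, -1.55 and -1.69 after the Rp and -4.32, -5.09 and -3.40 after the FRp, so that only Rp replicate 1 fell within the FRp range. The difference was 2.03 (exact permutation p = 0.20). For 4CL3 to 4CL1, with 0.5 read added to each, it was 2.14 (exact permutation p = 0.30) and it was 0.83 without FRp replicate 1, in which 4CL3 had 0 reads. After Benjamini-Hochberg adjustment over the 5 ratios the exact permutation values were 0.75 for FLS1 to F3H and 4CL3 to 4CL1 and 1 for the rest, so no ratio passed.

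Replicate 3 of the Rp group was low in CHS and in several, but not all, of the other flavonoid genes. The log2 difference between that library and the mean of Rp replicates 1 and 2 was -1.46 for CHS, and 99.7% of the tested genes were less reduced. Over all tested genes this difference had a median of -0.02, with the central 90% from -0.65 to 0.41. It was -0.72 for F3H, -0.80 for 4CL1 and -1.18 for PAL1, whereas PAL2 (-0.14), PAL4 (-0.30), C4H (0.06), 4CL3 (0.05), CHI (-0.42) and FLS1 (-0.09) were inside the central range. Among the genes for anthocyanins and proanthocyanidins it was -1.94 for DFR (dihydroflavonol reductase), -2.28 for LDOX (anthocyanidin synthase), -2.196 for BAN (anthocyanidin reductase), -1.81 for TT19 (a glutathione transferase needed to place these pigments in the vacuole) and -1.08 for TT12 (a vacuolar transporter). Of the others on that list, UGT75C1 was at -0.72, while AHA10 (0.08) and TT10 (-0.11) were inside the central range. UGT79B1 and 5MAT had no reads. Of the embryo and endosperm markers, CRU2 (-0.79), OLEO1 (-0.68) and EPR1 (-0.77) were outside the central range in Rp replicate 3 as well. So was ZOU (-0.74), with 2 reads in Rp replicate 2 and 0 elsewhere. Inside it were CRA1 (-0.41), CRU3 (-0.47), OLEO2 (-0.52), M17 (-0.22), MAN7 (0.03), MAN6 (-0.37), MAN5 (0.18) and NCED6 (-0.02). The part of these markers in this was not tested. FRp replicate 3 was also below the mean of its other 2 libraries in PAL1 (-1.27), 4CL1 (-1.31), CHI (-0.60), DFR (-0.56), LDOX (-0.89), BAN (-0.58) and TT19 (-1.71), and above it in FLS1 (1.09), while CHS there stood at -0.07. For these differences 0.05 CPM was added to each value. This comparison was chosen after its values were seen, several of these genes had few reads, and it carries no test.

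**Figure D4:**
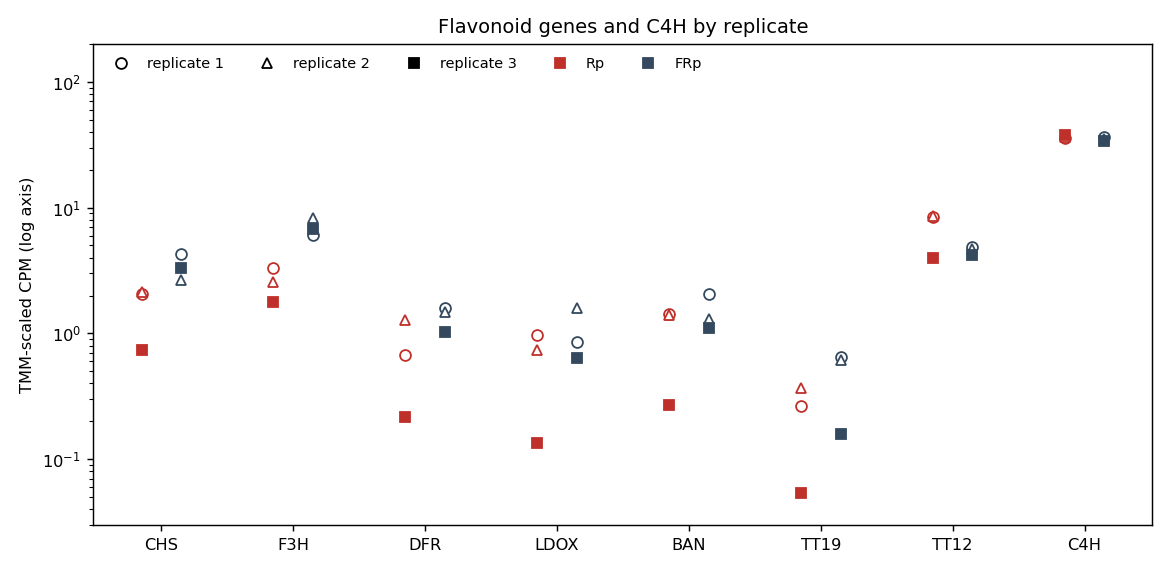
TMM-scaled CPM (y axis, log scale) of CHS, F3H, 5 genes of the anthocyanin and proanthocyanidin branch and C4H in each library, red for Rp and blue for FRp, with replicate 3 as a filled square. The filled red square of Rp replicate 3 is the lowest Rp value of the 7 flavonoid genes shown, with CHS at 0.732 CPM, and is level with the other libraries for C4H. AHA10 and TT10, which were not low in that library, are not shown.

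**Figure D5:**
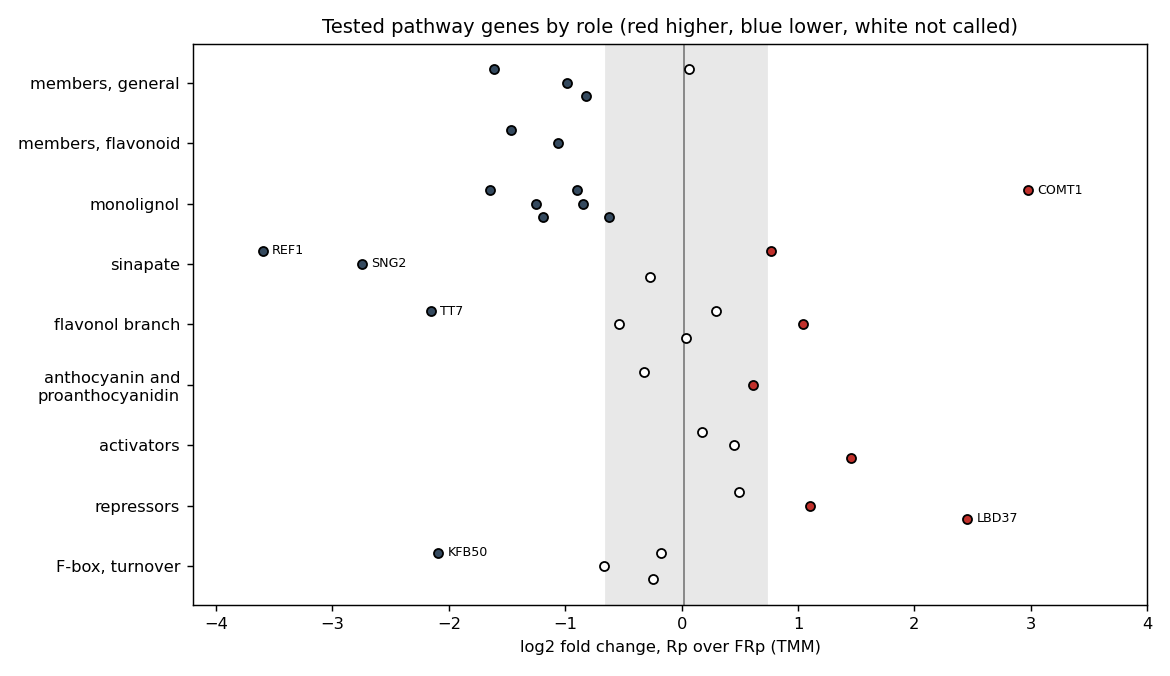
Log2 fold change, Rp over FRp with TMM (x axis), of each tested gene of the pathway by role (rows), red for called higher, blue for called lower and white for not called. The grey band spans the middle 50% of all tested genes (-0.65 to 0.73), around their median of 0.02. COMT1 (2.97) and LBD37 (2.46) lie farthest to the right and REF1 (-3.60) and SNG2 (-2.75) farthest to the left.

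Around the 10 genes, 63 other genes of the pathway were followed, of which 28 could be tested, 7 were called higher, 10 lower and 11 did not pass (median log2 fold change -0.26), shares near the 28.8% higher and 26.8% lower of all tested genes. Of 10 lignin precursor genes, 7 were tested, with 6 lower and 1 higher and a median of -0.90, where 26.8% of all tested genes were called lower and 28.8% higher around a median of 0.02. HCT, the acyltransferase of the shikimate ester path, was at 9.84, 8.41 and 8.30 CPM after the Rp and 29.3, 27.0 and 26.7 CPM after the FRp, and fell by 1.64 on the log2 scale (edgeR adjusted p = 4.71e-08). C3H1, the hydroxylase that follows, fell by 1.25 and CCR1, a cinnamoyl-CoA reductase, by 1.19 (edgeR adjusted p = 7.97e-07 and 3.60e-07). COMT1, an O-methyltransferase, moved the other way. It was at 28.6, 26.0 and 34.2 CPM after the Rp and 4.53, 3.16 and 3.76 CPM after the FRp, with a log2 fold change of 2.97 (SE 0.16, edgeR adjusted p = 6.56e-09). CAD4, under the filter, was also called higher in the fit without one (log2 fold change 1.09, edgeR adjusted p = 0.0032). Its mean was 2.29 CPM after the Rp and 1.06 CPM after the FRp. CCR2 and CAD5, under the filter as well, did not pass.

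The sinapate genes held the largest falls among the tested genes of the pathway. All 4 were tested, with 2 lower, 1 higher and 1 not called, where 26.8% of all tested genes were called lower and 28.8% higher. REF1, the aldehyde dehydrogenase that makes sinapate and ferulate, was at 27.4, 28.2 and 29.4 CPM after the Rp and 354.7, 334.5 and 340.6 CPM after the FRp, a fall of 3.60 on the log2 scale (edgeR adjusted p = 2.63e-10). SNG2, which makes sinapoylcholine, the main sinapate ester of the seed, fell by 2.75 (edgeR adjusted p = 3.52e-09), from 22.9 ± 2.18 to 3.41 ± 0.19 CPM (SD, n = 3 each). UGT84A2, which makes sinapoylglucose, the donor that SNG2 uses, rose by 0.77 (edgeR adjusted p = 2.62e-05). The fall of REF1 and SNG2 goes beside that of the embryo markers, which all fell as well, and their part in it was not tested.

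Of 10 further genes of the flavonol branch, 5 were tested, with 1 higher, 1 lower and 3 not called. Of all tested genes, 28.8% were called higher and 26.8% lower. TT7 (AT5G07990), the flavonoid 3′-hydroxylase that turns kaempferol-type into quercetin-type compounds, was at 2.11, 1.78 and 1.06 CPM after the Rp and 6.18, 7.70 and 7.99 CPM after the FRp. It fell by 2.15 on the log2 scale (SE 0.25, edgeR adjusted p = 6.68e-06), with Rp replicate 3 again the lowest, but like 4CL1 and CHS it passed the filter only through the FRp group, where it is high. UGT78D1, which adds rhamnose to flavonols, rose by 1.05 (edgeR adjusted p = 9.40e-06), from 7.42 ± 0.87 to 15.3 ± 0.51 CPM (SD, n = 3 each). CHIL, a non-catalytic relative of CHI, was under the filter and did not pass in the fit without one (log2 fold change -0.30, edgeR adjusted p = 0.466). UGT73C6, also under the filter, was called higher in that fit (log2 fold change 3.28, edgeR adjusted p = 1.06e-08), at 2.24 CPM after the Rp and 0.221 CPM after the FRp.

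Of the 10 genes for anthocyanins and proanthocyanidins, only 2 could be tested, and TT12 was called higher. Its log2 fold change was 0.61 (edgeR adjusted p = 0.0465), with Rp replicate 3 at 3.99 CPM below the 3 FRp libraries (4.19 to 4.83 CPM) and the other Rp libraries at 8.44 and 8.58 CPM. The call was lost in 5 of the 6 fits that left out a library, with edgeR adjusted p up to 0.174, and held without Rp replicate 3 (0.90, edgeR adjusted p = 3.51e-04). TT12 was named after its values were seen. DFR, LDOX and BAN were under the filter, with log2 fold changes of -0.94, -0.77 and -0.52 that did not pass (edgeR adjusted p = 0.0760, 0.210 and 0.318). Without Rp replicate 3 those of DFR, LDOX and BAN were -0.50, -0.28 and -0.06, and DFR was called lower without Rp replicate 2 (-1.62, edgeR adjusted p = 0.0053) and without FRp replicate 3 (-1.10, edgeR adjusted p = 0.0326).

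Few of the known regulators of the pathway were detected at a testable level. Of 14 activators, 3 were tested, and EGL3, a bHLH partner of MYB factors, rose by 1.45 (edgeR adjusted p = 1.85e-07), from 8.67 ± 0.66 to 23.8 ± 1.89 CPM (SD, n = 3 each). GL3 of the same list, under the filter, was called higher in the fit without one (log2 fold change 1.78, edgeR adjusted p = 2.00e-04). Its mean was 1.79 CPM after the Rp and 0.507 CPM after the FRp. No other activator under the filter was called in that fit. HY5, the bZIP factor of light responses, was at 4.86, 3.86 and 3.66 CPM after the Rp and 3.44, 3.88 and 3.60 CPM after the FRp, and did not pass (log2 fold change 0.18, edgeR adjusted p = 0.438). MYB12, an activator of CHS, F3H and FLS1, had 0 reads in all 6 libraries, and MYB111, of the same subgroup, had 24.2 reads on average and did not pass (log2 fold change 0.86, edgeR adjusted p = 0.143 without a filter), though it was called higher with library totals (1.28, edgeR adjusted p = 0.0146) and without FRp replicate 3 (1.27, edgeR adjusted p = 0.0423). Of 7 repressors, 3 were tested, 2 rose and 1 did not pass, where 28.8% of all tested genes were called higher. The other 4 were under the filter and went both ways in the fit without one. There MYB7 was called lower (log2 fold change -1.09, edgeR adjusted p = 0.0220) and LBD38 higher (2.11, edgeR adjusted p = 0.0133). These had 32.7 and 13.5 reads on average, and MYB4 and MYBL2 did not pass. MYB32, of the subgroup that represses phenylpropanoid genes, rose by 1.11 (edgeR adjusted p = 6.50e-04), and LBD37, a repressor of anthocyanin synthesis linked to nitrogen, rose by 2.46 (edgeR adjusted p = 1.01e-04), from 0.709 ± 0.43 to 3.75 ± 0.23 CPM (SD, n = 3 each), having passed the filter only through the Rp group, where it is high.

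Some F-box proteins of the Kelch type mark PAL enzymes for breakdown, and KFB-CHS marks CHS. Of 5 genes of this list 4 were tested, 1 fell and 3 did not pass, where 26.8% of all tested genes were called lower. The fifth, KFB-CHS, was under the filter and did not pass without one (log2 fold change -0.28, edgeR adjusted p = 0.455). KFB50 (AT3G59940) was at 24.4, 18.9 and 13.7 CPM after the Rp and 91.3, 74.7 and 77.0 CPM after the FRp, and fell by 2.09 on the log2 scale (SE 0.17, edgeR adjusted p = 2.68e-07). So mRNA of PAL2 and PAL4 and of 1 factor of PAL turnover were lower in the same libraries. Protein was not measured.

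The 5 tested genes whose log2 CPM followed CHS most closely over the 6 libraries were AFP1 (Pearson r = 0.996), AT3G62650 (0.995), AT2G07774 (0.994), the precursor of MIR408 (0.994) and AT1G55964 (0.993). AFP1 encodes a protein that binds the abscisic acid factor ABI5, and was at 7.76, 7.74 and 5.59 CPM after the Rp and 10.0, 8.31 and 9.45 CPM after the FRp. It shares with CHS the low value of Rp replicate 3. With 6 libraries in 2 groups such values are common, as 618 of 16923 tested genes had r over 0.9 with CHS, and they are given as a description.

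Splicing of the 10 genes could not be compared at this depth. The junction table held 42 lines for them, 5 with reads both for inclusion and exclusion, and 0 met the minimums for a test, against 28466 events in all. Junctions with spliced reads were listed for 3 of the 10 genes and for none of the other 7. The introns of C4H, of 220 and 85 nt, had 386 and 329 spliced reads over the 6 libraries. 4CL1 had 95 reads over an intron of 96 nt and 48 over one of 331 nt, which were 6, 2 and 1 reads after the Rp and 13, 20 and 6 after the FRp, and PAL4 had 56 over an intron of 104 nt. All 5 junctions begin with GT and end with AG in TAIR10.1. Without asking the gene to pass the filter in both groups, 1 event had enough reads on each side, retention of a 4CL1 intron. It had 1 boundary read after the Rp and 5 after the FRp, beside 35 and 60 spliced reads. With each spliced read counted 2 times, as an intron has 2 boundaries, retention was 1.41 and 4.0%. The event was not tested.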

How the data were processed

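RNA-seq libraries of whole Col-0 seeds (3 Rp and 3 FRp) were compared, with groups and replicates taken from the sample labels. The submitters' processing notes name TopHat2 2.1.1, SAMtools 1.3 and the TAIR10 build. The authors deposited raw counts of reads per gene on the TAIR10 transcriptome, raw counts of reads on junctions and exon and intron boundaries, and a fraction spliced in or retained per condition that was not used here. Whether counting used strand is not given in the sources used here. Of 33602 gene identifiers, 32835 were matched to RefSeq, and all 27998 nuclear loci shared with TAIR10.1 overlapped on the same chromosome.

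Counts were fitted in R 4.3.3 with edgeR 4.0.16 (TMM, quasi-likelihood test, Benjamini-Hochberg adjustment over 16924 genes), the thresholds being those of the study's methods. At these thresholds the study reported fewer changed genes than the 9413 called here, and the reason was not tested. Standard errors were taken from the fold change and the F statistic. The code of the fit was run on simulated data with few changed genes, as many higher as lower, and no shift in make-up between groups. That run does not bear on how TMM deals with the shift in make-up of these libraries. Genes under the filter come from a fit of all 25888 genes with reads. Log2 ratios were compared by the exact permutation test. Motifs were searched as exact letters on both strands. Plots were drawn with matplotlib 3.10.9. Splice events could not be tested as intended, since no event of these genes met the minimums of 10 junction reads per library and 5 reads on each side together with a gene above the filter in both groups.

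The genes and lists were chosen with earlier results of these data known. Besides the 10 genes, the text names up to 3 called genes per direction and list with a mean of at least 50 reads and no overlap between groups, a fixed set (TT7, DFR, LDOX, BAN, MYB12, MYB111, CHIL, HY5) and the 5 genes closest to CHS. PAL3, 4CL2, 4CL5, TT12 and TT19 were named after their values were seen. So were MYB4, MYB7, MYBL2, LBD38, UGT75C1, UGT79B1, 5MAT, AHA10, TT10, UGT73C6, KFB-CHS, CAD4, CCR2, CAD5 and GL3. Alternatives were library totals, upper-quartile factors, the exact test of edgeR, DESeq2 1.42.0, other filters and folds, the replicate number as a block and each library left out. Each of these combined with no filter was chosen after seeing the data.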

Additional observations from a re-analysis of the deposited data

How the results depend on the processing

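With library totals 7524 genes were called higher and 2568 lower in place of 4877 and 4536, and 2 of the 10 pathway genes (4CL1 and F3H) were called lower in place of 5. With a fold change over 2, 5757 genes were called in place of 9413 (3088 higher and 2669 lower), and 3 of the 10 were called lower. No other alternative moved the count of the 10 genes called lower past 1.5 times or gave a gene called higher. The log2 fold change of CHI was 0.20 with library totals and ranged from -0.39 to 0.15 with a library left out, and that of CHIL was 0.13 with library totals. That of 4CL3 ranged from -0.50 to 0.46 with a library left out, with -0.055 without Rp replicate 1 and -0.0040 without Rp replicate 3. HY5 (0.60, edgeR adjusted p = 0.0176) and MYB111 (1.28, edgeR adjusted p = 0.0146) were called higher with library totals. The ratios of PAL2 to PAL1 (-0.23 to 0.50), PAL4 to PAL1 (-0.11 to 0.78) and CHS to PAL1 (-0.36 to 0.34) changed sign with a library left out, while those of FLS1 to F3H (1.62 to 2.65) and 4CL3 to 4CL1 (0.83 to 3.17) did not. The cause was not tested. Same-numbered libraries deviated from their group means with correlations of 0.0656, -0.111 and -0.0604 over all tested genes, so no pairing by number was seen across the genes as a whole. Pairing that touches only part of the genes was not tested. With the replicate number as a block 9357 genes were called and 5 of the 10 were lower, and the calls of TT12, PAL3 and 4CL2 were lost. For splice events only the stricter minimum of 20 junction reads was run (0 events of these genes), and robust variance, the adjusted p of 0.05, the replicate block and the leaving out of libraries were not run because no event could be tested. Depth limits PAL1, 4CL3, CHI and FLS1, with 4.67 to 35.5 reads per library on average.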
